A study of Mus musculus with 2 samples.

Results

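Ly6m, Ly6g, Ly6e, Ly6a, Ly6c1 and Ly6c2, 6 genes of the Ly6 family, were followed in single-nucleus RNA sequencing of the mouse colon. They were taken by symbol, and each symbol matched 1 of the 32285 gene IDs in the deposited tables. The members were chosen by their UMI counts in these same libraries, where Ly6m stood far higher in the knockout, so the values below describe the libraries and carry no test. The study set Pink1 knockout mice beside wild-type littermates, and PINK1 is a mitochondrial kinase that takes part in the clearance of mitochondria. All mice were males aged 15 weeks of strain C57BL/6, kept free of specific pathogens. The knockout library (labelled batch 2) and the wild-type library (labelled batch 1) each held sorted colon nuclei of 3 mice, pooled before loading on the 10x Genomics platform. Genotype, library and batch coincide and cannot be told apart, and the spread between mice is not known. The sources used here do not say which part of Pink1 was deleted, or in which cells.

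Ly6 proteins are small, cysteine-rich proteins with the fold known as three-finger, and most are held at the outer face of the cell membrane by a glycosylphosphatidylinositol (GPI) anchor. Several are used as cell surface markers: Ly6G for neutrophils, Ly6A (also called Sca-1) for blood stem cells and endothelium, and Ly6C for monocytes, endothelium, plasma cells and some T cells. Ly6a and Ly6e are known as interferon-induced genes in mice, and Ly6A also marks colon epithelium under repair.

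The 6 genes lie within 282 kb of chromosome 15 (GRCm38, GENCODE M21). Ly6m, listed there as 2010109I03Rik, spans chr15:74876987-74897021 on the minus strand, and Ly6e spans chr15:74955051-74959905 on the plus strand. Ly6a follows at chr15:74994877-74998031, Ly6c1 at chr15:75044018-75048830 and Ly6c2 at chr15:75108158-75111970, all on the minus strand. Ly6g ends the row on the plus strand at chr15:75155240-75159126. All 6 are protein-coding and none overlaps another annotated gene. Of the exonic windows of 90 bases, the length of the sequenced cDNA read, 12.9% in Ly6c1 and 7.27% in Ly6c2 also occurred in a transcript of another gene, mostly in each other. Within the last 500 bases of the transcripts, nearest the 3' tags, the share was 13.8% in Ly6c1 and 19.3% in Ly6c2. Their counts could therefore be divided between the pair. For the other members the share over whole transcripts was 2.21% in Ly6a, 0.373% in Ly6m and 0 in Ly6e and Ly6g.

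Promoters from RefSeq (GRCm38.p6) were matched for 3 of the 6 members. They are shown because 3 members with alike promoters were detected in different cells of the colon, as described below. Each sequence gives the 250 bases before the RefSeq start, at chr15:75155011-75155260 on the plus strand for Ly6g, chr15:75048838-75049087 on the minus strand for Ly6c1 and chr15:75111972-75112221 on the minus strand for Ly6c2. Capitals mark TATAAA, the TATA box letters.
Ly6g: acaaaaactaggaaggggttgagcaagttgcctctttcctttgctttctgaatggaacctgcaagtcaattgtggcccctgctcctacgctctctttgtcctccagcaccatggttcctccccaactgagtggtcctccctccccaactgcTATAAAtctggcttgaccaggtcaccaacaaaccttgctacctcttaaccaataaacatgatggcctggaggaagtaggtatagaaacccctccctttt
Ly6c1: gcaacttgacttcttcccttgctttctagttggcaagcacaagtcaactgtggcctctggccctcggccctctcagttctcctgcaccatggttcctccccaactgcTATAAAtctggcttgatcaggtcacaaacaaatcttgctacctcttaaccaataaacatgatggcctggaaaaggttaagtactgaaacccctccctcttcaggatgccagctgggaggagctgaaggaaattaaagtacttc
Ly6c2: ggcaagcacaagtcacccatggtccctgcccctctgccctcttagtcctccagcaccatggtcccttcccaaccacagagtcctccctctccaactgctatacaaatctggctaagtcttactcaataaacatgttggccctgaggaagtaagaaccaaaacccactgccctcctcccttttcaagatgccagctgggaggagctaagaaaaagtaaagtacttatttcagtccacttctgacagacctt
In global alignments without gapped positions, Ly6g and Ly6c1 carried the same base at 172 of 206 positions (83.5%), Ly6g and Ly6c2 at 139 of 173 (80.3%) and Ly6c1 and Ly6c2 at 164 of 216 (75.9%). TATAAA began at position -99 from the start in Ly6g and at -143 in Ly6c1 and was not found in Ly6c2, while 13% of 27025 mouse promoter windows of the same length held it. The windows were also searched on both strands for GAAA followed after 2 bases of any kind by GAAA, the core of the interferon-stimulated response element, for TTCNNNGAA, the gamma-activated site, and for TGANTCA, the AP-1 site. None of those 3 motifs was present in the 3 windows, beside 3.04%, 7.18% and 6.87% of all windows, and no matched positions overlapped.

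The knockout library held 12230 barcodes and 22446326 UMIs (unique molecular identifiers, each counting 1 captured RNA), and the wild-type library 8924 barcodes and 16997995 UMIs. Filtering kept 10966 knockout nuclei (median depth 1571 UMIs) and 8256 wild-type nuclei (median depth 1624 UMIs), and 22 kept barcodes occurred in both libraries. The nuclei formed 30 clusters, of which 26 took the name of a class from marker genes and 4, holding 30.2% of knockout and 32.0% of wild-type nuclei, stayed unnamed. Clusters were rebuilt here from marker genes, so class names are given as likeness. Pink1 had 113 counts in the knockout library and 171 in the wild-type library, a ratio of 0.537 (0.420 to 0.686), and whether its 3' tags lie outside the deleted part is not known. The immediate early gene Egr1 had 978 CPM in the knockout library and 36.4 CPM in the wild-type library, a ratio of 26.9 (24.7 to 29.3). Of 24 immediate early genes, 21 were at least 1.5-fold higher in the knockout library, beside 6.51% of the 16562 genes with at least 20 counts. Here and below CPM are UMIs of a gene per 1000000 UMIs of nuclear-encoded genes, ratios are knockout over wild type, and the ranges in parentheses are exact 95% intervals that cover counting error only. With 1 library per genotype no test between genotypes was possible.

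Over all nuclei, each member had more CPM in the knockout library, by very different factors. Ly6m had 953 counts (51.4 CPM) in the knockout library and 81 counts (5.37 CPM) in the wild-type library, a ratio of 9.57 (7.62 to 12.2). Ly6a had 980 counts (52.9 CPM) in the knockout and 417 counts (27.7 CPM) in the wild-type library, a ratio of 1.91 (1.70 to 2.15). Ly6c1 had 233 counts (12.6 CPM) in the knockout and 94 counts (6.23 CPM) in the wild-type library, a ratio of 2.02 (1.58 to 2.59). For these 3 genes the ratio passed 1.5. Ly6g had 204 counts (11 CPM) in the knockout and 121 counts (8.03 CPM) in the wild-type library, a ratio of 1.37 (1.09 to 1.73). Ly6e, the member detected in the most nuclei, had 1590 counts (85.8 CPM) in the knockout and 988 counts (65.5 CPM) in the wild-type library, a ratio of 1.31 (1.21 to 1.42). Ly6c2 was scarce, with 19 counts (1.02 CPM) in the knockout and 11 counts (0.730 CPM) in the wild-type library, and its ratio of 1.40 (0.635 to 3.27) was not distinguishable from 1 at this depth. Thus 3 of 6 members were at least 1.5-fold higher, beside 6.51% of the 16562 genes with at least 20 counts, and 0 were as much lower, beside 8.07%, and nothing is read from that count because the members were chosen with these values known. The members' median log2 ratio was 0.70 and that of all genes measured -0.02. A library total mixes the level in a cell with the number of such cells, so the ratios were also computed with every cluster given the same weight in both libraries. They were then 7.70 for Ly6m, 1.92 for Ly6g, 1.37 for Ly6e, 1.64 for Ly6a, 1.47 for Ly6c1 and 1.16 for Ly6c2.

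Each member had its own distribution over the colon. In the knockout library Ly6m was highest in colonocyte-like and then goblet-like nuclei, Ly6g in colonocyte-like nuclei, and Ly6e, Ly6a and Ly6c1 in blood endothelium-like nuclei. The few Ly6c2 counts lay mostly in plasma-like and T and innate lymphoid-like nuclei.

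**Figure D1:**
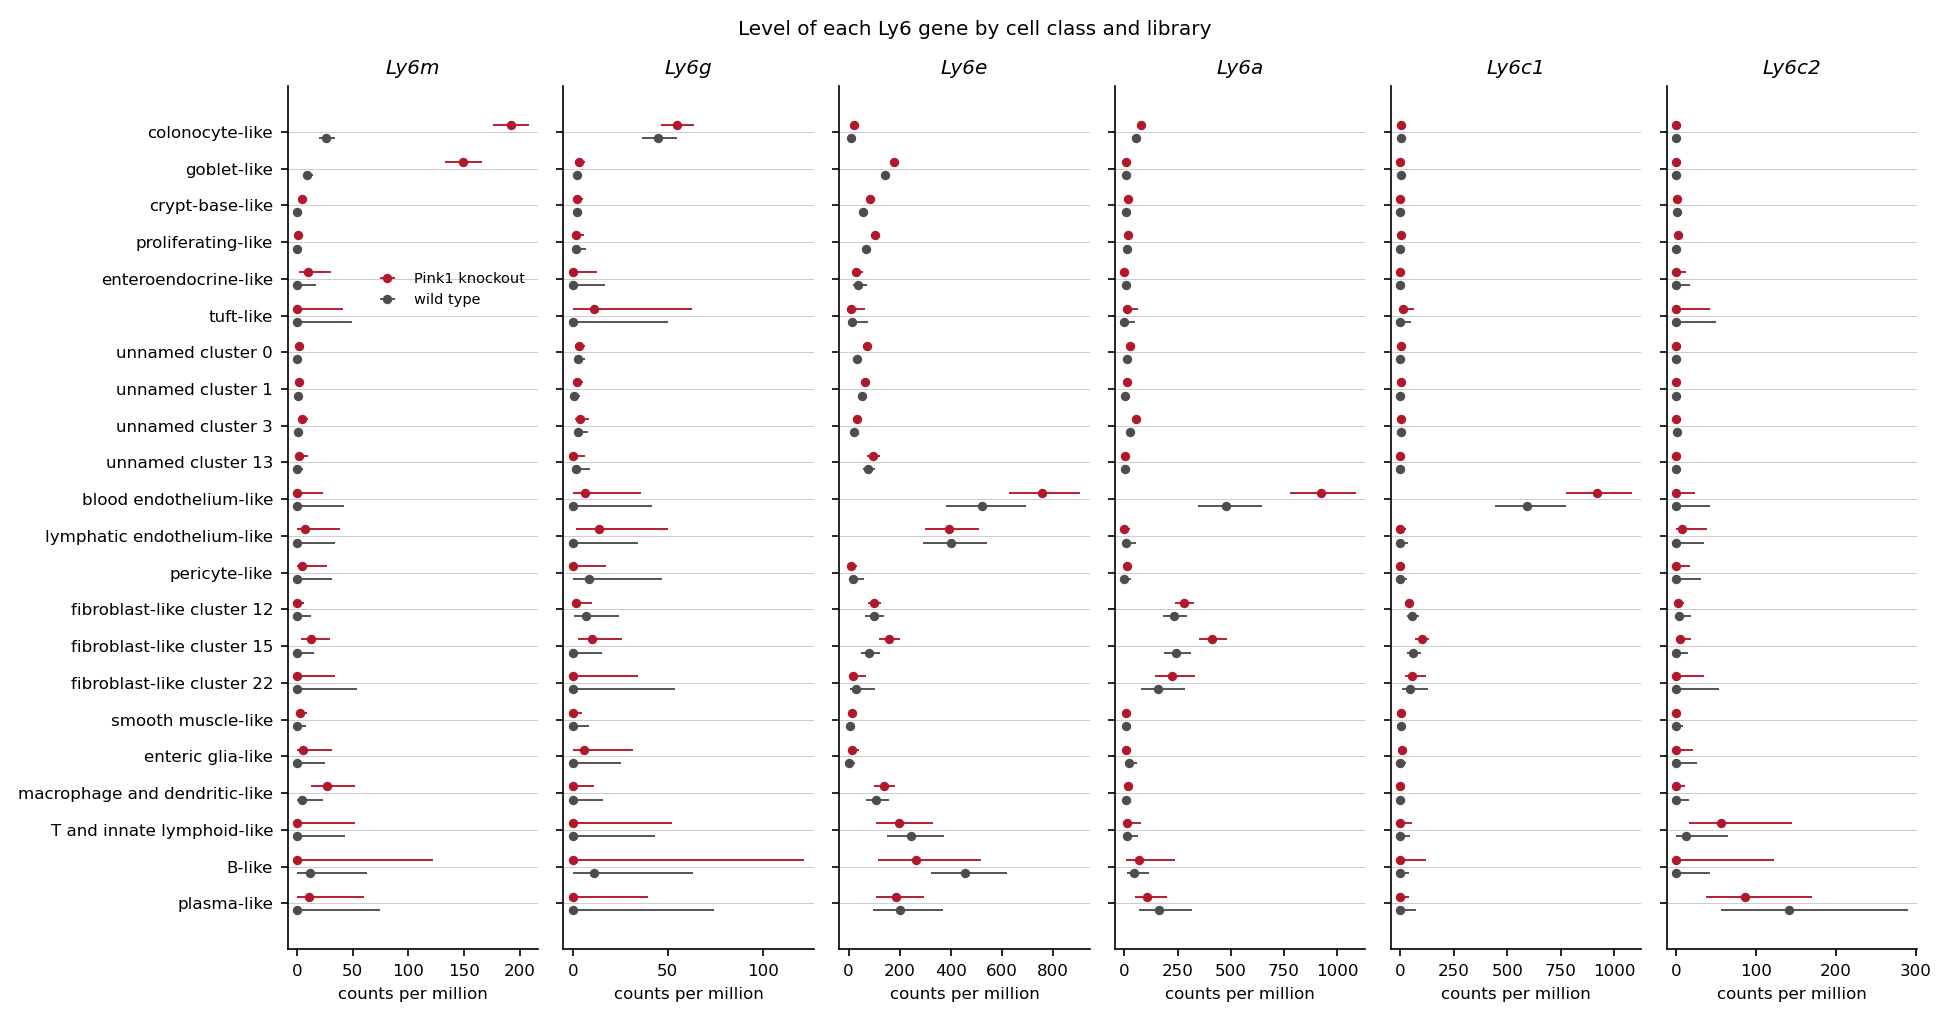
Level of the 6 genes in CPM (horizontal axes, one scale per gene) in named classes, 4 unnamed clusters and 3 fibroblast-like clusters, in the Pink1 knockout (red) and wild-type (grey) libraries. Bars are exact Poisson 95% intervals for counting error only. Ly6m stood at 192 CPM in knockout and 26.2 CPM in wild-type colonocyte-like nuclei, and Ly6c1 at 919.8 CPM in knockout and 591 CPM in wild-type blood endothelium-like nuclei.

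Colonocyte-like and goblet-like nuclei together held 94.5% of the Ly6m counts in the knockout and 92.6% in the wild-type library. Colonocyte-like nuclei, the absorptive cells of the colon surface, numbered 1679 in the knockout and 1076 in the wild-type library. They held 571 Ly6m counts (192 CPM, 176 to 208) in the knockout and 56 counts (26.2 CPM, 19.8 to 34.0) in the wild-type library, a ratio of 7.31 (5.55 to 9.80). Goblet-like nuclei, which secrete the mucus, numbered 1127 in the knockout and 971 in the wild-type library. They held 330 counts (149 CPM, 133 to 166) in the knockout and 19 counts (9.54 CPM, 5.74 to 14.9) in the wild-type library, a ratio of 15.6 (9.84 to 26.3). In the knockout library these were the first and second classes by level, with intervals that did not overlap each other or the next class. In the wild-type library the intervals of the 3 highest classes overlapped, and 1 of these, B-like nuclei, rested on 1 count. Among crypt-base-like nuclei, which hold the stem cells, 12 counts (4.77 CPM) were found in the knockout library and 1 count (0.404 CPM) in the wild-type library. Blood endothelium-like, T and innate lymphoid-like and tuft-like nuclei had 0 counts in both libraries. Macrophage and dendritic-like nuclei had 9 counts in the knockout library, all in 1 nucleus, and 1 count in the wild-type library.

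The level of free RNA was read from classes outside the epithelium. In stroma, muscle, glia, endothelium and immune classes together, Ly6m stood at 6.50 CPM (20 counts, 9 of them in 1 nucleus) in the knockout and 0.974 CPM (2 counts) in the wild-type library. With each nucleus thinned to 500 UMIs, 0.171% (0.0465 to 0.436) of those nuclei had a Ly6m UMI in the knockout and 0.142% (0.0172 to 0.513) in the wild-type library, with medians before thinning of 1138 UMIs in the knockout and 1207 UMIs in the wild-type library. The thinned share in colonocyte-like nuclei was 6.02% (4.93 to 7.26) in the knockout and 1.21% (0.645 to 2.06) in the wild-type library, and unthinned 10.4% in the knockout and 3.25% in the wild-type library, where the class had medians of 1628 UMIs and 1774 UMIs. In goblet-like nuclei it was 4.70% (3.54 to 6.11) in the knockout and 0.412% (0.112 to 1.05) in the wild-type library, and unthinned 8.78% in the knockout and 0.721% in the wild-type library. The interval of the wild-type goblet share overlapped that of the classes that should lack the gene, and the other 3 shares lay above it. By level, wild-type goblet-like nuclei at 9.54 CPM (5.74 to 14.9) stood above those classes at 0.974 CPM (0.118 to 3.52), with no overlap. Their 19 counts came from only 7 nuclei, 1 of them with at least 5 UMIs, and the interval of a level takes each UMI as independent. Whether wild-type goblet-like nuclei lay above free RNA is therefore not settled.

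Ly6m was concentrated in few nuclei. Of knockout colonocyte-like nuclei 174 had at least 1 Ly6m UMI, 111 at least 2, 31 at least 5 and 12 at least 10, against 35, 12, 1 and 0 of the wild-type nuclei. The mean among nuclei with a UMI was 3.28 in the knockout and 1.60 in the wild-type library. Of knockout goblet-like nuclei 99 had at least 1 UMI, 24 at least 5 and 3 at least 10, against 7, 1 and 0 of the wild-type nuclei. Thus in both classes the knockout library held more nuclei with Ly6m and, among colonocyte-like nuclei with a UMI, a higher mean. The 10 nuclei with the most counts held 25.0% of the Ly6m counts of knockout and 51.8% of wild-type colonocyte-like nuclei, and 31.5% of those of knockout goblet-like nuclei. In the wild-type library 7 goblet-like nuclei had a Ly6m UMI, which does not limit how many express the gene.

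The clusters of the epithelium, which were formed without the 6 members among their genes, separated the classes further. Goblet-like nuclei fell into cluster 5, led by Fcgbp, Zg16 and Clca1 of the mucus and also by Slfn4 of the Schlafen family, and cluster 9, led by Reg4. Nearly all goblet Ly6m was in cluster 5, with 326 counts (216 CPM, 193 to 240.4) in the knockout and 18 counts (14.5 CPM, 8.59 to 22.9) in the wild-type library, a ratio of 14.9 (9.27 to 25.4). Cluster 9 had 4 counts (5.67 CPM) in the knockout and 1 count (1.33 CPM) in the wild-type library. Colonocyte-like nuclei fell into clusters 7, 8 and 10, and the libraries filled them unequally: 668, 431 and 580 nuclei in the knockout and 417, 515 and 144 in the wild-type library. Cluster 10, led by Emp1 and the sodium-proton exchanger gene Slc9a3, had 269.8 CPM (239 to 303) in the knockout and 65.2 CPM (39.3 to 102) in the wild-type library, a ratio of 4.14 (2.60 to 6.97). Cluster 8, led by Slc37a2 and holding the acute phase gene Saa1 among its 10 leading genes, had 187 CPM (159 to 218) in the knockout and 28.6 CPM (19.4 to 40.6) in the wild-type library, a ratio of 6.52 (4.42 to 9.92). Cluster 7, led by the bile acid transporter gene Slc10a2, had 118 CPM (97.8 to 140) in the knockout and 7.87 CPM (2.89 to 17.1) in the wild-type library, a ratio of 14.9 (6.67 to 41.5). The intervals of the knockout and wild-type levels did not overlap in any of these 4 clusters. With both libraries given the same cluster weights, the ratio was 5.96 in colonocyte-like nuclei and 14.4 in goblet-like nuclei, against 7.31 and 15.6 without these weights.

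**Figure D2:**
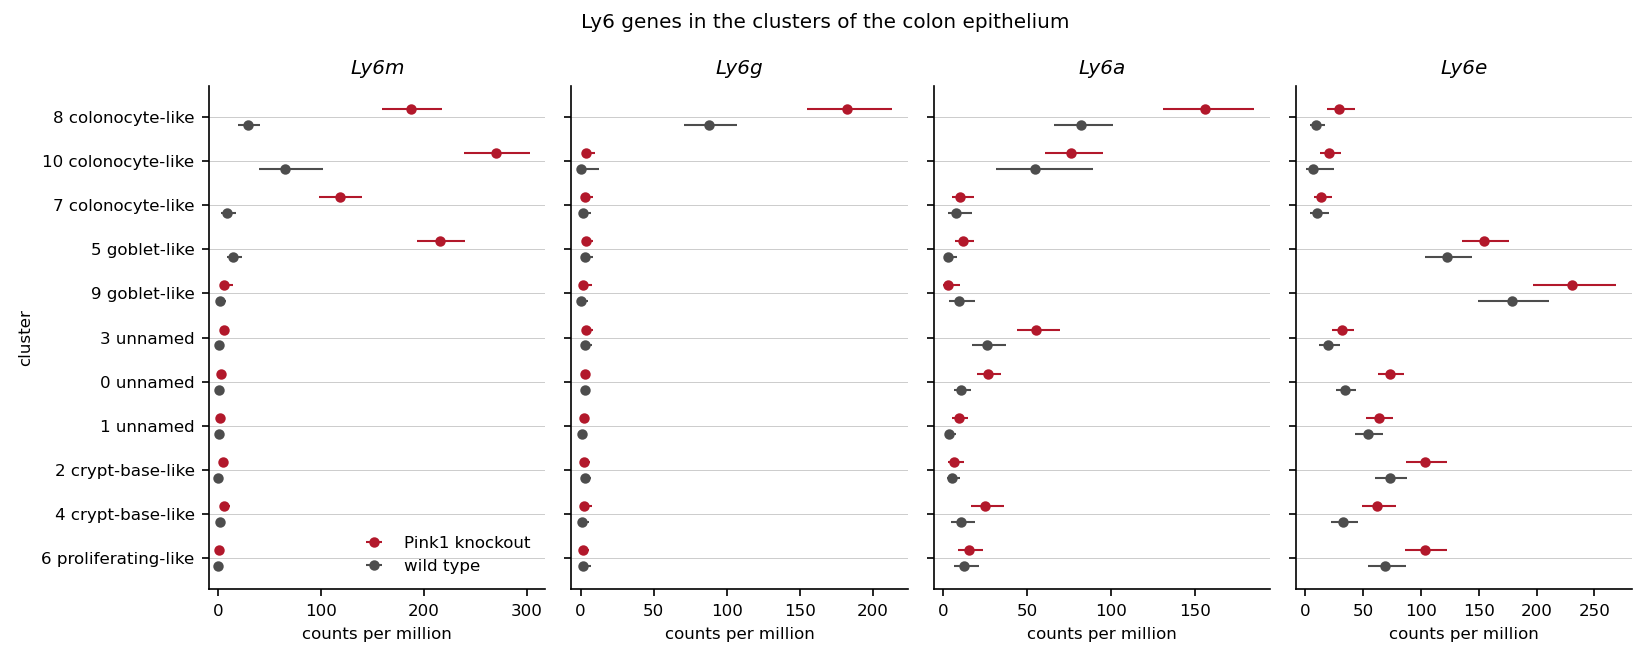
Level of Ly6m, Ly6g, Ly6a and Ly6e in CPM (horizontal axes) in 11 clusters (8 of epithelial classes and 3 unnamed) of the Pink1 knockout (red) and wild-type (grey) libraries, with exact Poisson 95% intervals for counting error only. Ly6m was high in clusters 5, 7, 8 and 10 of the knockout library, Ly6g in cluster 8 of both, and Ly6e was lower in the colonocyte-like clusters than in the goblet-like ones.

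Among colonocyte-like nuclei, Ly6m was highest where transcripts of surface genes were highest. The 2755 nuclei of both libraries were placed in 5 bins of equal size by a score of 12 genes of surface colonocytes, such as Krt20, Guca2a and Car4, several of which also lead clusters 8 and 10. In the highest bin Ly6m stood at 401 CPM in the knockout (432 nuclei) and 76.5 CPM in the wild-type library (119 nuclei), a ratio of 5.24 (3.41 to 8.47). In the lowest bin it stood at 83.1 CPM in the knockout (237 nuclei) and 20.3 CPM in the wild-type library (314 nuclei), a ratio of 4.08 (1.99 to 9.03). The ratios of the bins between were 5.69, 4.93 and 7.19, and the 5 intervals overlapped. The knockout library thus had more Ly6m in every bin, and a step up in the highest bin was seen in both libraries.

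**Figure D3:**
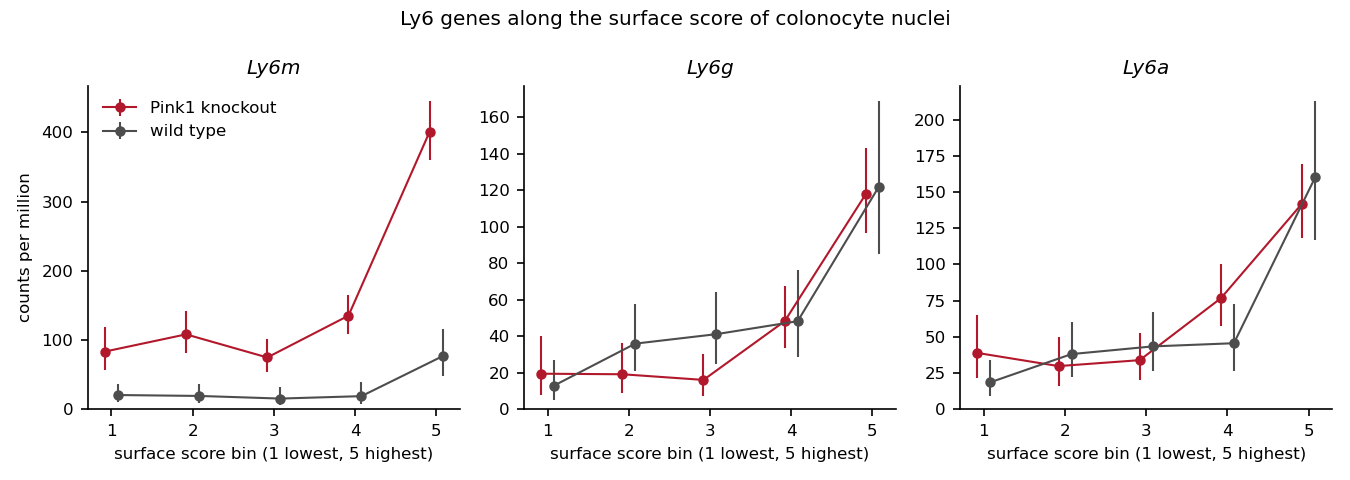
Level of Ly6m, Ly6g and Ly6a in CPM (vertical axes) in 5 bins of colonocyte-like nuclei by surface score, for the Pink1 knockout (red) and wild-type (grey) libraries, with exact Poisson 95% intervals for counting error only. Ly6m reached 401 CPM in knockout and 76.5 CPM in wild-type nuclei of bin 5, where Ly6g had 118 CPM in knockout and 122 CPM in wild-type nuclei and Ly6a 142 CPM in knockout and 160.0 CPM in wild-type nuclei.

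Nuclei of the knockout library with a Ly6m UMI were set beside the other knockout nuclei of the same cluster to show which genes went with it. The genes shown were chosen after values were seen, and the split lies within 1 library and at different depths, with medians of 1987 UMIs with and 1831 UMIs without a Ly6m UMI in cluster 5, and 1634 UMIs with and 1900.0 UMIs without one in cluster 8. In goblet-like cluster 5, the 95 nuclei with a Ly6m UMI had 576 CPM of Krt20, the keratin of mature surface epithelium, and the other 651 nuclei 129 CPM, a ratio of 4.47 (3.51 to 5.69). Mxd1, a MYC antagonist expressed on differentiation, stood at 3535 CPM with and 1165 CPM without a Ly6m UMI, a ratio of 3.03 (2.78 to 3.32). Clca1, a secreted mucus-processing protease, was 1.93 times as high (1.83 to 2.04), the mucus lectin gene Zg16 1.40 times (1.34 to 1.45) and the mucin gene Muc2 1.07 times (1.03 to 1.12). The colonocyte genes Car4, with 1 and 16 counts, and Slc26a3, with a ratio of 1.02 (0.445 to 2.09), were low in both sets. The surface colonocyte score genes, of which Krt20 is one, were summed 1.61 times as high (1.51 to 1.71) in these nuclei, and the summed goblet markers 1.28 times (1.26 to 1.31). Guca2a, another of the score genes, was lower, at 52.8 CPM (11 counts) with and 104 CPM (136 counts) without a Ly6m UMI, a ratio of 0.506 (0.247 to 0.935). Goblet-like nuclei with Ly6m thus had more Krt20, Mxd1 and summed surface score transcripts, but not more of every score gene. In cluster 10, Car4, a carbonic anhydrase of the brush border, stood at 1212 CPM in the 74 nuclei with and 260.3 CPM in the 506 nuclei without a Ly6m UMI, a ratio of 4.66 (3.81 to 5.69). Slc26a3, the chloride-bicarbonate exchanger gene, was 2.15 times as high (1.98 to 2.33) there and 1.72 times (1.59 to 1.86) in cluster 8. In cluster 7 Slc26a3 was 1.36 times as high (1.08 to 1.71). The intervals of Krt20 (0.879 to 1.37), Car4 (0.952 to 1.77), Guca2a (0.328 to 1.32) and the summed surface score genes (0.968 to 1.12) included 1 in cluster 7. Guca2a, which encodes guanylin, was lower in the cluster 10 nuclei with Ly6m, at 0.693 times (0.568 to 0.839). Egr1 was lower in nuclei with Ly6m in all 4 clusters, with ratios of 0.588 (0.462 to 0.739) in cluster 5, 0.390 (0.166 to 0.784) in cluster 7, 0.607 (0.354 to 0.981) in cluster 8 and 0.499 (0.349 to 0.694) in cluster 10. The immediate early genes as a summed list, Egr1 among them, went the other way in 3 of the 4, with ratios of 1.23 (1.17 to 1.30) in cluster 5, 1.29 (1.18 to 1.41) in cluster 7 and 1.38 (1.30 to 1.47) in cluster 10, and stood at 0.979 (0.900 to 1.06) in cluster 8. Such a sum leans on its most abundant genes. In knockout goblet-like nuclei Klf4 had 2909 counts and Klf6 1579, beside 1116 of Egr1. In knockout colonocyte-like nuclei Klf4 had 3063 and Klf6 4023, beside 991 of Egr1. Counted by gene, 7 of 18 of the list were at least 1.5-fold higher in cluster 5, beside 12.3% of all genes measured, and 1 lower, beside 32.1%. In cluster 7 it was 3 of 14, beside 13.4%, and 3 lower, beside 36.8%. In cluster 8 it was 3 of 15, beside 15.5%, and 3 lower, beside 25.6%. In cluster 10 it was 7 of 15, beside 13.3%, and 4 lower, beside 36.9%. Fos, another immediate early gene, had 1.32 (1.13 to 1.54) in cluster 5 and 0.725 (0.576 to 0.904) in cluster 8.

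**Figure D4:**
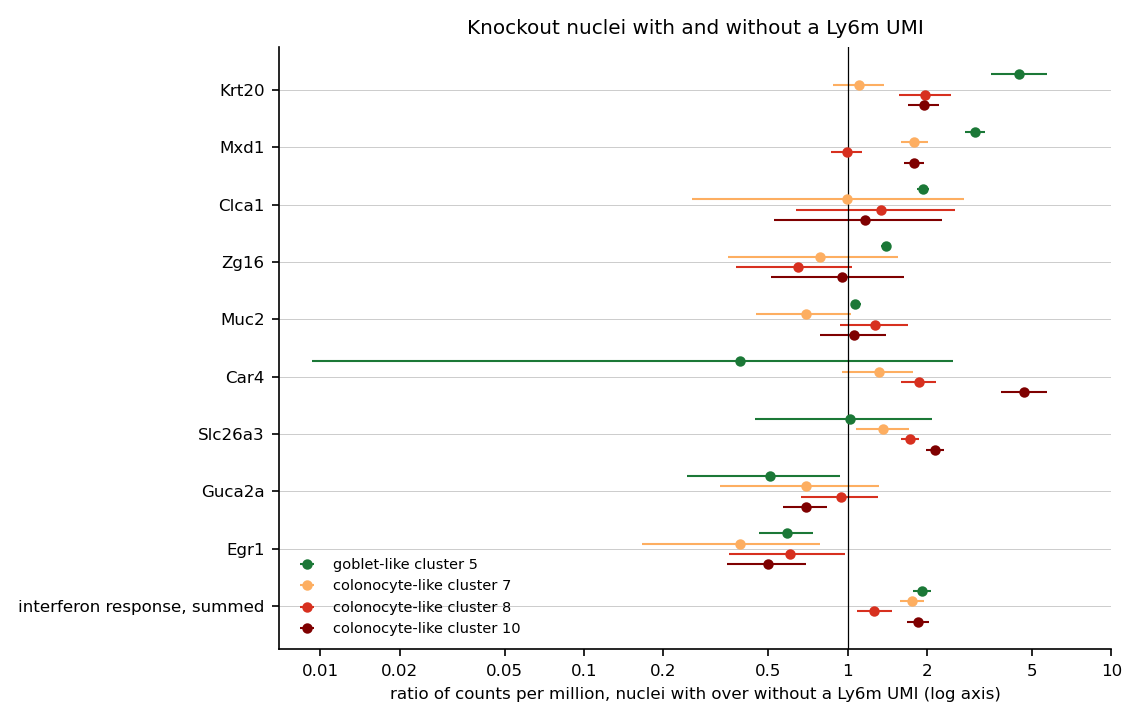
Ratio of the level in knockout nuclei with a Ly6m UMI over that in knockout nuclei without one (log axis), for 9 genes and the summed interferon response list in 4 clusters, with exact conditional 95% intervals for counting error only. Krt20 and Mxd1 were furthest above 1 in goblet-like cluster 5, Car4 in colonocyte-like cluster 10, and Egr1 was below 1 in all 4 clusters.

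Interferon response genes were more often higher than all genes in nuclei with Ly6m of clusters 5, 7 and 10, and less clearly so in cluster 8. In cluster 5, 17 of 33 measured genes of the list were at least 1.5-fold higher in nuclei with a Ly6m UMI, beside 12.3% of all 7532 genes measured, and 2 were at least 1.5-fold lower, beside 32.1%. The list's median log2 ratio was 0.59 and that of all genes -0.24. In cluster 7, 18 of 31 were higher beside 13.4% of all genes and 3 lower beside 36.8%. In cluster 8, 6 of 22 were higher beside 15.5% and 5 lower beside 25.6%, the lower count being near that of all genes. In cluster 10, 15 of 26 were higher beside 13.3% and 0 lower beside 36.9%. Rsad2, which encodes the antiviral enzyme viperin, stood at 331 CPM with and 56.0 CPM without a Ly6m UMI in cluster 5, a ratio of 5.92 (4.19 to 8.34). Trim25, a ubiquitin ligase of RNA sensing, had ratios of 2.59 (2.13 to 3.14) in cluster 5 and 3.16 (2.09 to 4.68) in cluster 10. Oasl2, of the oligoadenylate synthetase family, had ratios of 3.25 (2.15 to 4.86) in cluster 5 and 3.97 (2.53 to 6.16) in cluster 10. Ifih1, a sensor of double-stranded RNA, had ratios of 1.43 (0.980 to 2.05) and 2.79 (1.94 to 3.96) in clusters 5 and 10. In cluster 7 Trim25 had a ratio of 2.30 (1.55 to 3.32) and Oasl2 one of 2.57 (1.73 to 3.73). The intervals of Rsad2 (0.711 to 2.49) and Ifih1 (0.736 to 1.93) included 1 there, and Irf9 was lower, at 0.373 (0.0999 to 0.985). With nuclei thinned to 500 UMIs, 3.62% (1.58 to 7.01) of knockout colonocyte-like nuclei with an Egr1 UMI and 6.38% (5.18 to 7.76) of those without one had a Ly6m UMI, and the intervals overlapped.

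The genes whose levels ran most like those of Ly6m over clusters were Mxd1, Cyp2d34, Myo15b, Gtpbp2 and Stk25. Likeness was the lower of the 2 libraries' Pearson correlations of log2(CPM + 5) over 26 knockout and 25 wild-type clusters of at least 50 nuclei, among 8936 genes, and it was 0.823 for Mxd1 and 0.746 for the fifth. Clusters of a library share its depth and preparation, so these are descriptions.

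Ly6g, the neutrophil antigen gene, was detected mainly in colonocyte-like nuclei and had 0 counts in macrophage and dendritic-like nuclei of both libraries. Colonocyte-like nuclei held 163 of its 204 counts in the knockout and 96 of its 121 counts in the wild-type library, at 54.7 CPM (46.6 to 63.7) in the knockout and 44.9 CPM (36.4 to 54.9) in the wild-type library, a ratio of 1.22 (0.94 to 1.58). Within that class nearly all lay in cluster 8, with 156 counts (182 CPM, 155 to 213) in the knockout and 95 counts (87.7 CPM, 70.9 to 107) in the wild-type library. The ratio in cluster 8 was 2.08 (1.60 to 2.71), and no other cluster had more than 7 counts in a library. Cluster 8 took 431 of 1679 colonocyte-like nuclei in the knockout and 515 of 1076 in the wild-type library, and with the same cluster weights the class ratio was 2.11. The knockout library thus had a smaller part of its colonocyte-like nuclei in the cluster that carries the gene, and more of the gene per UMI within it. Over the surface score Ly6g gave another picture, with 118 CPM in the knockout and 122 CPM in the wild-type library in the highest bin, a ratio of 0.971 (0.656 to 1.47), and 16.0 CPM in the knockout and 41.1 CPM in the wild-type library in the third, a ratio of 0.389 (0.155 to 0.902). Cluster 8 filled 33.3% of knockout and 61.3% of wild-type nuclei of the highest bin, and 18.7% of knockout and 44.9% of wild-type nuclei of the third.

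Markers of neutrophils were at or near 0 beside it. Of 10 neutrophil markers, 7 had any count over all nuclei, and together they had 82 counts (4.42 CPM) in the knockout and 61 counts (4.05 CPM) in the wild-type library, mostly of the receptor genes Cxcr2 and Csf3r. In cluster 8 the list had 4 counts in the knockout and 2 in the wild-type library, and 8 of 10 genes were at 0. S100a8 had 1 count in each library, and S100a9, Retnlg and Camp had 0 in both. Of 9 monocyte markers 4 had counts in cluster 8, summing to 726 in the knockout and 278 in the wild-type library, of which Plac8 made 712 in the knockout and 270 in the wild-type library. The part of these cells in the Ly6g values was not tested. The genes most like Ly6g over clusters were Fxyd4, Slc37a2, Atp12a, Aqp8 and Trpv3, with a likeness of 0.751 for Fxyd4, a regulator of the sodium pump, and of 0.550 for Trpv3. Atp12a encodes a proton pump of the distal colon and Aqp8 a water channel.

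Ly6e, known in mice and humans as an interferon-induced gene and as an inhibitor of coronavirus entry, was detected in most classes. Blood endothelium-like nuclei had 759 CPM (628 to 909) in the knockout and 523 CPM (383 to 697) in the wild-type library. Lymphatic endothelium-like nuclei followed with 395 CPM (299 to 511) in the knockout and 401 CPM (290.4 to 541) in the wild-type library. In the knockout library the blood endothelium interval stood apart from the next class, and in the wild-type library it overlapped that of B-like nuclei at 455 CPM (40 counts). T and innate lymphoid-like nuclei had 198 CPM in the knockout and 246 CPM in the wild-type library. In the epithelium, goblet-like nuclei had 179 CPM (162 to 198) in the knockout and 144 CPM (128 to 162) in the wild-type library, a ratio of 1.24 (1.07 to 1.45). Crypt-base-like nuclei had 85.0 CPM in the knockout and 57.4 CPM in the wild-type library, a ratio of 1.48 (1.19 to 1.84), and proliferating-like nuclei 104 CPM in the knockout and 69.4 CPM in the wild-type library, a ratio of 1.49 (1.11 to 2.02). Colonocyte-like nuclei were lowest of these, at 20.8 CPM (62 counts) in the knockout and 9.36 CPM (20 counts) in the wild-type library, a ratio of 2.22 (1.32 to 3.88). Smooth muscle-like nuclei had 11.9 CPM (5.43 to 22.5) in the knockout and 6.81 CPM (1.41 to 19.9) in the wild-type library, intervals that overlap the colonocyte-like ones, so the colonocyte-like level was not shown to lie above free RNA. With 10% free RNA subtracted the ratio was 4.36. Ly6m and Ly6e thus ran in opposite order over colonocyte-like and goblet-like nuclei in the knockout library, Ly6m being higher in the first and Ly6e in the second.

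Ly6e ratios were mostly above 1 and small. Of 18 clusters with at least 50 nuclei in each library and at least 20 counts, 16 had a ratio above 1, with 9 intervals wholly above 1 and 0 below, over a range of 0.805 to 3.16. Unnamed cluster 0, led by Gsdmc3, had 73.6 CPM (168 counts) in the knockout and 34.3 CPM (64 counts) in the wild-type library, a ratio of 2.14 (1.60 to 2.91). Fibroblast-like cluster 15, led by Nrg1, had 158 CPM in the knockout and 78.3 CPM in the wild-type library, a ratio of 2.02 (1.19 to 3.57), whereas fibroblast-like cluster 12, led by Dcn, had 99.6 CPM in the knockout and 97.8 CPM in the wild-type library, a ratio of 1.02 (0.640 to 1.65). These 2 intervals overlapped. Goblet-like nuclei with and without an Egr1 UMI had like shares with Ly6e in the knockout library at 500 UMIs, 7.44% (4.31 to 11.8) and 7.79% (6.13 to 9.72). The genes most like Ly6e over clusters were Apobec3, a cytidine deaminase that acts on retroviruses, with a likeness of 0.749, then Serinc3, Eef1a1, Smarca2 and Rpsa.

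Ly6a and Ly6c1 both had their highest level in blood endothelium-like nuclei, but their counts were spread differently. Blood endothelium-like nuclei held 61.4% of the Ly6c1 counts in the knockout and 55.3% in the wild-type library, and 14.7% of the Ly6a counts in the knockout and 10.1% in the wild-type library. Fibroblast-like nuclei held the most Ly6a counts, 35.3% in the knockout and 33.8% in the wild-type library, and colonocyte-like nuclei 23.1% in the knockout and 26.6% in the wild-type library. Blood endothelium-like nuclei numbered 162 in the knockout and 74 in the wild-type library, under the 100 nuclei a class ratio needed. Ly6a had 144 counts (926 CPM, 781 to 1090.5) there in the knockout and 42 counts (477 CPM, 344 to 645) in the wild-type library. Ly6c1 had 143 counts (919.8 CPM, 775 to 1084) there in the knockout and 52 counts (591 CPM, 441 to 775) in the wild-type library. The Ly6a intervals did not overlap, and those of Ly6c1 met at 775 CPM. With the limit lowered to 50 nuclei, chosen after seeing the data, the ratio was 1.94 (1.37 to 2.81) for Ly6a, 1.56 (1.13 to 2.18) for Ly6c1 and 1.45 (1.02 to 2.09) for Ly6e. At 500 UMIs, 33.3% of knockout and 20.3% of wild-type blood endothelium-like nuclei had a Ly6a UMI, and 37.0% of knockout and 29.7% of wild-type nuclei a Ly6c1 UMI. Of knockout nuclei with a Ly6a UMI 42.6% (29.2 to 56.8) also had a Ly6c1 UMI, and of those without one 34.3% (25.4 to 44.0). Lymphatic endothelium-like nuclei, in contrast, had 0 Ly6a counts in the knockout and 1 in the wild-type library, and 0 Ly6c1 counts in both. Blood endothelium took 1.48% of knockout and 0.896% of wild-type nuclei, so the all-nuclei ratios of these genes also carry its share.

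Fibroblast-like clusters came next for both genes. In cluster 12 Ly6a had 281 CPM (158 counts) in the knockout and 233 CPM (69 counts) in the wild-type library, a ratio of 1.21 (0.905 to 1.63). In cluster 15 it had 413 CPM (162 counts) in the knockout and 243 CPM (59 counts) in the wild-type library, a ratio of 1.70 (1.25 to 2.33), and in cluster 22 the ratio was 1.39 (0.656 to 3.15). Ly6c1 had 39.1 CPM in the knockout and 53.9 CPM in the wild-type library in cluster 12, a ratio of 0.725 (0.364 to 1.48). In cluster 15 it had 99.4 CPM in the knockout and 57.7 CPM in the wild-type library, a ratio of 1.72 (0.915 to 3.44). Both fibroblast intervals of Ly6c1 included 1. Outside endothelium and fibroblasts Ly6c1 had at most 7 counts in any class of either library.

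In the epithelium Ly6a, known as Sca-1, was detected mainly in colonocyte-like nuclei, with 75.8 CPM (226 counts) in the knockout and 51.9 CPM (111 counts) in the wild-type library, a ratio of 1.46 (1.16 to 1.85). Cluster 8 had 156 CPM in the knockout and 82.1 CPM in the wild-type library, a ratio of 1.90 (1.44 to 2.52), and cluster 10 a ratio of 1.39 (0.807 to 2.55). Like Ly6g, Ly6a did not differ detectably in the highest surface score bin, at 142 CPM in the knockout and 160.0 CPM in the wild-type library, a ratio of 0.888 (0.628 to 1.27). Unnamed cluster 3, led by Apol10a and holding the antimicrobial genes Reg3b and Reg3g among its leading genes, had 55.6 CPM in the knockout and 26.1 CPM in the wild-type library, a ratio of 2.13 (1.38 to 3.39). Unnamed cluster 0 stood at 26.7 CPM in the knockout and 10.7 CPM in the wild-type library, 2.49 times as high (1.48 to 4.36). Crypt-base-like nuclei held 38 counts in the knockout and 18 in the wild-type library, a ratio of 2.07 (1.15 to 3.86). Goblet-like cluster 5 had 18 counts in the knockout and 4 in the wild-type library, a ratio of 3.70 (1.22 to 15.0). Smooth muscle-like nuclei, read as a gauge of free RNA, had 7.91 CPM (2.90 to 17.2) of Ly6a in the knockout and 9.09 CPM (2.48 to 23.3) in the wild-type library. The crypt-base-like levels of 15.1 CPM in the knockout and 7.28 CPM in the wild-type library, and the cluster 5 levels of 11.9 CPM in the knockout and 3.22 CPM in the wild-type library, lay within or below those intervals and are not read as expression. In unnamed cluster 0 the wild-type level also lay within the wild-type interval, and the knockout level lay above the knockout one. Altogether, 12 of 12 clusters with a ratio were above 1, 8 of them with the whole interval above 1, over a range of 1.21 to 3.70, and the clusters with low counts among them are subject to the same limit. The genes most like Ly6a over clusters were Tmod3 (0.711), the endothelial and stromal surface gene Cd34 (0.667), Rhoa, Anxa1 and the thrombomodulin gene Thbd. For Ly6c1 they were Ly6a itself (0.782), Cd34 (0.773), Fbln2, Slc43a3 and Heg1.

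Ly6c2, whose product carries the same Ly6C antigen, had 8 counts in plasma-like nuclei of the knockout (86.4 CPM, 37.3 to 170.2) and 7 in those of the wild-type library (141 CPM, 56.6 to 290.2). T and innate lymphoid-like nuclei had 4 counts in the knockout and 1 in the wild-type library. No difference between libraries was detectable at this depth. Colonocyte-like and goblet-like nuclei had 0 counts in both libraries, and the upper limit of the exact Poisson interval was 1.24 CPM in knockout and 1.73 CPM in wild-type colonocyte-like nuclei.

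Read class by class, 2 of the 4 members measured in colonocyte-like nuclei (Ly6m and Ly6e) were at least 1.5-fold higher in the knockout library, Ly6e at levels near free RNA, beside 7.11% of 10293 genes measured there, and 0 as much lower, beside 13.7%. In goblet-like nuclei it was 2 of 3 (Ly6m and Ly6a), beside 6.31% of 10502 genes, and 0 lower, beside 11.8%. Ly6a stood there near free RNA, and its ratio's interval of 0.746 to 3.78 included 1. In crypt-base-like nuclei it was 1 of 2 (Ly6a, not read as expression there), beside 6.31%, and 0 lower, beside 809 of 11561 genes. In unnamed cluster 0 it was 2 of 2 (Ly6a and Ly6e), beside 8.28%, with 0 lower beside 9.21%. Members measured had at least 20 counts in the class over both libraries, so these counts leave out the rest of the 6 and support nothing about them.

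Genes of the interferon response were set beside the members by the same limits. Over all nuclei 25 of 62 measured genes of the list were at least 1.5-fold higher in the knockout library, beside 6.51% of all genes measured. As much lower were 0, beside 8.07%, and the list's median log2 ratio was 0.45. Ido1, which breaks down tryptophan, had a ratio of 7.32 (4.20 to 13.8), and Iigp1, an immunity-related GTPase, one of 4.02 (3.51 to 4.62). In colonocyte-like nuclei 17 of 44 were higher, beside 7.11% of all genes there, and 0 lower, beside 13.7%, with a median of 0.55. Zbp1, a sensor of nucleic acids, had 41.9 CPM (125 counts) there in the knockout and 8.89 CPM (19 counts) in the wild-type library, a ratio of 4.72 (2.90 to 8.10), and Oasl2 a ratio of 2.36 (1.85 to 3.06). Irf1, a transcription factor, was lowest with 0.793 (0.699 to 0.900). In goblet-like nuclei 12 of 42 were higher, beside 6.31% of all genes there, and 0 lower, beside 11.8%, with a median of 0.32. Rsad2 had 64.1 CPM (142 counts) there in the knockout and 4.52 CPM (9 counts) in the wild-type library, a ratio of 14.2 (7.26 to 31.6), close to that of Ly6m in the same nuclei. In crypt-base-like nuclei 4 of 34 were higher, beside 6.31% of all genes there, and 1 lower, beside 809 of 11561 genes, with a median of 0.06. Unnamed cluster 1 had 3 Ly6m counts in the knockout and 1 in the wild-type library. There 17 of 35 were higher, beside 743 of 10106 genes, and 0 lower, beside 1046, with a median of 0.54. In unnamed cluster 3 it was 9 of 28, beside 831 of 9473 genes, and 0 lower, beside 863, with a median of 0.33. Macrophage and dendritic-like nuclei had 8 of 30 higher, beside 736 of 5054 genes, and 1 lower, beside 742, with a median of 0.35. In unnamed cluster 0 it was 1 of 31, beside 8.28%, and 5 lower, beside 9.21%, with a median of -0.06. Ly6a and Ly6e were both at least 1.5-fold higher there, Ly6a from a wild-type level within the smooth muscle-like gauge of free RNA. How the members and this list go together was not tested. Immediate early genes, the list of Egr1 and Fos, were higher in 14 of 18 measured in colonocyte-like nuclei, beside 7.11% of all genes there. In goblet-like nuclei it was 17 of 19, beside 6.31%, and the part of these genes in the results was not tested.

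Receptor and anchor genes were set beside them. Over all nuclei the interferon receptor genes Ifngr1 and Ifngr2 had ratios of 1.15 (1.09 to 1.22) and 0.830 (0.753 to 0.914). In goblet-like nuclei Ifngr1 had 123 CPM in the knockout and 76.8 CPM in the wild-type library, a ratio of 1.60 (1.31 to 1.97), and Ifnar1 23.5 CPM in the knockout and 39.2 CPM in the wild-type library, a ratio of 0.599 (0.414 to 0.862). Of 11 interferon receptor and signalling genes measured there, 1 was at least 1.5-fold higher (6.31% of all genes there) and 1 lower (11.8%). That list's median log2 ratio was 0.27 there and 0.03 over all nuclei. In crypt-base-like nuclei the Ifngr1 ratio was 1.08 (0.904 to 1.29). Of the genes that make and attach the GPI anchor, 1 of 28 in colonocyte-like nuclei was at least 1.5-fold higher (7.11% of all genes there) and 2 lower (13.7%), with a median log2 ratio of -0.14. In goblet-like nuclei 1 of 28 was higher (6.31% of all genes there) and 4 lower (11.8%), with a median of -0.29. The median of all genes was -0.07 in both classes, and the anchor list's counts lay near those of all genes. Piga, which starts the anchor, had ratios of 1.20 (1.03 to 1.39) in colonocyte-like and 1.43 (1.16 to 1.78) in goblet-like nuclei. Pigc, of the same enzyme complex, had 0.541 (0.373 to 0.778) in goblet-like nuclei, and Pigb, which adds a mannose, 0.519 (0.281 to 0.942) in colonocyte-like and 0.420 (0.275 to 0.632) in goblet-like nuclei.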

How the data were processed

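Single-nucleus RNA of sorted colon nuclei was measured in 1 pooled library per genotype. The authors deposited a matrix of UMI counts for each library. Cell Ranger 6.1.2 wrote it, per the file headers, and the genome was mm10, per the submitters' processing notes. Whether intronic or antisense reads were counted, and whether doublets were removed, is not stated in those sources. Every deposited barcode had at least 500 UMIs.

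The members and gene lists were chosen with earlier results of these data known. Nuclei with at least 500 UMIs, 300 genes and at most 10% mitochondrial UMIs were kept, and the highest Scrublet scores, 0.8% per 1000 nuclei, were removed (1180 of the knockout and 632 of the wild-type library). Counts were scaled to 10000 per nucleus, and 2000 variable genes without the 6 members gave 30 components, a graph of 20 neighbours and Leiden clusters at resolution 1 (scanpy 1.11.5, leidenalg 0.10.2, Python 3.11.15). A cluster took a class name with a mean log2 marker fold of at least 0.3 and 3 markers at least 2-fold up.

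UMIs were summed per library and class and divided by all nuclear-encoded UMIs. A ratio needed 20 counts and 100 nuclei per library in a class, or 50 in a cluster. Levels carry exact Poisson, shares Clopper-Pearson and ratios exact conditional binomial 95% intervals (scipy 1.17.1), which cover counting error only, and the code was tested on simulated data. Nuclei with over 500 UMIs were thinned to 500. Log2 ratios of lists had 0.5 counts added. Named were the 6 members, the 5 genes most like each over clusters, up to 4 genes at each end of a list by the interval bound nearest 1 with at least 50 counts, and Pink1 and Egr1; genes outside this rule were chosen after their values were seen. 1 gene of the interferon signalling list is not reported here.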

Additional observations from a re-analysis of the deposited data

How the results depend on the processing

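Of 194 alternative values of the ratios, 182 stayed within the counting interval, 12 moved outside it and 0 changed direction. Over all nuclei the Ly6m ratio was 13 with the stricter filter and 7.51 as a mean of each nucleus's own CPM, against 9.57, and thinning to 500 UMIs gave 1.73 for Ly6g and 2.30 for Ly6a. In colonocyte-like nuclei the looser filter gave Ly6m a ratio of 5.27 and the stricter one a ratio of 10.3, against 7.31. Its ratio in goblet-like nuclei ranged from 12.1 to 21.6. With 10% free RNA subtracted, Ly6e in colonocyte-like nuclei was 4.36, against 2.22. With at least 50 counts per gene, 10 interferon response genes instead of 17 were higher in colonocyte-like nuclei, 7 instead of 12 in goblet-like nuclei, and 2 genes of the wider family instead of 4 over all nuclei, since fewer genes were measured. The causes of the other moves were not tested. Ly6m in cluster 7 could not be given after thinning, with 0 wild-type counts. Cluster ratios were not recomputed under other clusterings. The limit of 50 nuclei was chosen after seeing the data. No paired analysis was possible because each genotype had 1 library. With 1 pooled library per genotype, no interval here covers the spread between mice, and Ly6c2 in any class is limited by depth.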

Other observations

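Of 40 further genes of the Ly6 and urokinase receptor family, 26 had a UMI and 15 at least 20 counts. Over all nuclei 4 of the 15 were at least 1.5-fold higher in the knockout library, beside 6.51% of all genes measured, and 1 lower, beside 8.07%. Among the higher genes, the intervals of Ly6g6c (0.820 to 3.70) and Spaca4 (0.614 to 4.76) included 1. So did that of the lower one, Ly6d (0.196 to 1.11). The list's median log2 ratio was -0.13 and that of all genes -0.02. The most abundant was Lypd8, which in mice keeps bacteria away from the colon epithelium, with 593 CPM in the knockout and 356 CPM in the wild-type library, a ratio of 1.67 (1.61 to 1.72). It stood at 1895 CPM in knockout and 1258 CPM in wild-type colonocyte-like nuclei, and at 588 CPM in knockout and 346 CPM in wild-type goblet-like nuclei. Plaur, the urokinase receptor gene, had 96 counts in the knockout and 47 in the wild-type library, a ratio of 1.66 (1.16 to 2.41).

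Other family genes lay in other cells. Ly6g6d was found in tuft-like nuclei at 237 CPM (21 counts) in the knockout and 135 CPM (10 counts) in the wild-type library. Cd59a, a complement inhibitor gene, stood at 290.1 CPM in knockout and 263 CPM in wild-type enteric glia-like nuclei. Gpihbp1, which anchors lipoprotein lipase to capillaries, had 132 CPM in knockout and 233 CPM in wild-type lymphatic endothelium-like nuclei, with overlapping intervals of 79.2 to 206 and 151 to 344. Blood endothelium-like nuclei had 77.2 CPM of it (12 counts) in the knockout and 11.4 CPM (1 count) in the wild-type library. Ly6g2 was found in colonocyte-like nuclei at 15.1 CPM in the knockout and 17.8 CPM in the wild-type library. Cd177, known on neutrophils, had 72.9 CPM in knockout and 73.0 CPM in wild-type enteroendocrine-like nuclei. These genes were chosen after their values were seen.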
